A study of Mus musculus with 2 samples.

Results

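Solute carriers are membrane proteins that move nutrients, metabolites, metals and ions across membranes without splitting ATP themselves. They were taken here as the probe sets whose only gene symbol in the platform annotation starts with Slc, a family number, letters and a member number, or with the same pattern after Slco. The rule found 187 probe sets for 153 genes, out of 12422 probe sets and 8251 named genes. The genes fell into 40 numbered families, and 124 of them had 1 probe set. The rule also took 3 genes that encode partners named after a carrier and no carrier, Slc4a1ap, Slc9a3r1 and Slc9a3r2. A further probe set that named both Slc22a28 and Slc22a30 was left out.

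Both samples were mouse bone marrow cells sorted as Lin-c-kit+Sca1+ (LSK), the fraction that holds the haematopoietic stem cells and multipotent progenitors. They form 1 group of 2 samples, called sample 1 and sample 2 as in their titles, and each was measured on 1 Affymetrix expression array. The labels give no treatment, genotype, strain or age, and nothing in them tells whether separate animals or sorts were used, so the spread between them may be technical. A sorted fraction is a mixture, and in such bulk RNA fewer cells of a type and less RNA per cell cannot be told apart.

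A gene counted as above the control level when a probe set of it exceeded, in both samples, the 90th percentile of the 15 probe sets for bacterial genes, which was 12.1 in sample 1 and 8.91 in sample 2. Signals are quantile-normalized intensities, and those under 20 were set to a floor of 20 before log2, because they have no order. Where 1 of the signals is under the floor, the fold is therefore a lower bound, written as "at least". Signals of different probe sets depend on the probes and are not set against each other. With 1 group of 2 samples no test was possible, and the differences below describe these 2 arrays only. Of the markers of the sorted cells, Flt3 had 137 and 322 in samples 1 and 2, Cd34 43.9 and 57.3, Gata2 51.2 and 67.8, Lyl1 695 and 2224, and Kit, on which the cells were sorted, 25.8 and 19.4. Ly6a, the gene of Sca1, was not analysed here. The samples differed widely in other genes, with the immediate early gene Fos at 41.7 and 839 and the myeloperoxidase gene Mpo at 1862 and 288.

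As background, carriers sit in different membranes. Most members of Slc25 span the inner mitochondrial membrane and connect the matrix with the cytosol. Members of Slc35 bring activated sugars into the endoplasmic reticulum and Golgi, and many of the others work at the plasma membrane, where they supply a dividing progenitor with sugars, amino acids, nucleosides and metals. Many carriers are made mainly by organs with transport epithelia, such as kidney, gut and liver, or by neurons.

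The share of carrier genes that passed the control level is given here beside that of all named genes, and no difference between them was tested. Of the 153 genes, 69 (45.1%) passed the control level in both samples, whereas 57% of all 8251 named genes did. A signal of 20 or more in both samples was found for 45 carrier genes (29.4%), against 40.7% of all named genes. The 69 genes came from 28 of the 40 families. Of the other 84 genes, 33 were above the control level in sample 2 alone, 13 in sample 1 alone and 38 in neither. The control level was lower in sample 2 than in sample 1.

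The substrate classes were built from whole families by number, so single members can carry other substrates than their class names. Mitochondrial carriers are here the Slc25 family, which includes the peroxisomal Slc25a17. At the control level and at the floor, mitochondrial carriers had the highest share of the classes with more than 3 genes, and carriers of organic ions, acids and peptides had the lowest. With the median bacterial probe set as the level, nucleotide sugar carriers (10 of 10) and amino acid carriers (19 of 20) had higher shares than Slc25 (18 of 20). Of the 20 Slc25 genes, 15 were above the control level and 11 had 20 or more in both samples. For nucleotide sugar carriers the counts were 6 and 4 of 10, and for carriers of metals and haem 9 and 7 of 17. Carriers of vitamins, nucleosides and choline had 5 and 4 of 10, sugar carriers 5 and 4 of 11, and carriers of transmitters and osmolytes 7 and 4 of 14. Amino acid carriers and inorganic ion carriers each had 7 and 4 of 20. Only 5 of the 26 carriers of organic ions, acids and peptides were above the control level, and 1 had 20 or more in both samples. These shares are descriptions of the measured genes, and no difference between classes was tested.

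**Figure D1:**
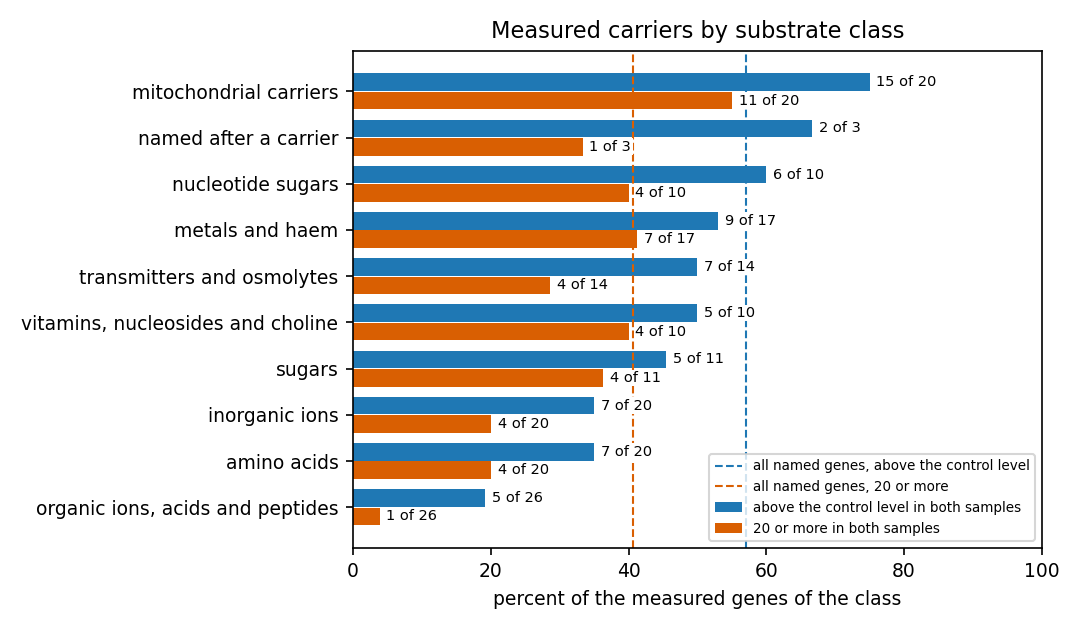
Percent of the measured genes of each substrate class that passed the control level in both samples (blue) or had a signal of 20 or more in both (orange), with the counts beside the bars and dashed lines for all 8251 named genes. Slc25 carriers stand at 15 of 20 and carriers of organic ions, acids and peptides at 5 of 26. A class of 2 genes, Slc33a1 and Slc66a2, is not drawn.

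Among the mitochondrial carriers, those for nucleotides, citrate, malate and fatty acids were present in both samples. Slc25a4, the adenine nucleotide translocator that exchanges ADP and ATP, had signals of 159 and 72.7, which is 2.18-fold higher in sample 1 (mean log2 signal 6.75 ± 0.80, SD, n = 2). Slc25a5, its paralogue in dividing cells, has 3 probe sets. They gave 37.0 and 19.9, 20.3 and 9.7, and 2.25 and 13.0, so the first pair was at least 1.85-fold higher in sample 1 and the third was not above the control level. Slc25a4 and Slc25a5 are close in sequence, so probes of either could bind RNA of both.

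The carriers that link the citric acid cycle with the cytosol were close between the samples. The citrate carrier gene Slc25a1 had 61.5 and 57.3 by the brighter probe set and 52.7 and 54.1 by its other. Slc25a11, the oxoglutarate and malate carrier of the malate-aspartate shuttle, had 90.5 and 69.6. Slc25a20, which brings acylcarnitines in for fatty acid oxidation, had 42.6 and 47.0. All of these were within 1.302-fold of each other between the samples.

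Slc25a39, the carrier that supplies mitochondria with glutathione, was higher in sample 2, with 132 and 299, or 2.27-fold (mean log2 signal 7.63 ± 0.84, SD, n = 2). Slc25a17, a peroxisomal member of the family, was higher in sample 1, with 112 and 43.7, or 2.57-fold (6.13 ± 0.96, SD, n = 2). Slc25a4, Slc25a17 and Slc25a39 each had 1 probe set. Hence 3 of the 15 Slc25 genes above the control level were 2-fold or more apart, 2 higher in sample 1 and 1 higher in sample 2, a share of 20% beside 20.7% of all named genes above that level.

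Other Slc25 genes had 20 or more in both samples. Slc25a51, the carrier of NAD+ into mitochondria, had 36.2 and 70.0 by the brighter probe set, but 33.6 and 24.3 by its other, so its probe sets went in opposite directions. Slc25a36, a pyrimidine nucleotide carrier, had 78.4 and 62.8, and the iron importer gene Slc25a28 (mitoferrin-2) 23.6 and 32.7. Slc25a53 had 27.7 and 37.4, and Slc25a45 had 29.0 and 30.0, a difference whose direction changed with the scaling.

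Of the 4 mitochondrial carriers above the control level but under 20 in a sample, Slc25a5 is described above. The ornithine carrier gene Slc25a15 had 31.9 and 17.2, Slc25a25, an ATP-Mg and phosphate carrier, 13.5 and 26.9, and Slc25a44, a branched-chain amino acid carrier, 15.5 and 16.2. The 5 genes not above the control level in both samples were Slc25a3, Slc25a10, Slc25a14, Slc25a47 and Slc25a48. Among them was the mitochondrial phosphate carrier gene Slc25a3, which supplies the ATP synthase, with 9.05 and 17.6. Slc25a47, a hepatocyte member, had 27.8 in sample 1 and 5.28 in sample 2.

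Carriers at the plasma membrane that feed the cell were measured unevenly. Slc3a2 encodes the CD98 heavy chain, which escorts several Slc7 amino acid exchangers to the cell surface. It had 146 in sample 1 and 223 in sample 2, or 1.53-fold higher in sample 2 (mean log2 signal 7.49 ± 0.43, SD, n = 2). Slc7a5, the light chain LAT1 that takes up leucine and other large neutral amino acids, had 72.2 and 127, 1.76-fold higher in sample 2 (6.58 ± 0.58, SD, n = 2). Both chains of this exchanger were thus above 20 in both samples and higher in the same sample.

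The other Slc7 genes on the array were not above the control level in both samples. These were Slc7a1, Slc7a2, Slc7a3, Slc7a6, Slc7a7, Slc7a8, Slc7a9 and Slc7a11, so that Slc7a5 was 1 of 9. The cationic amino acid carrier gene Slc7a1 had 2.55 and 2.05, and the cystine exchanger gene Slc7a11 9.8 and 11.1. Slc7a2 (9.9 and 29.6) and Slc7a9 (5.05 and 28.5) exceeded the floor in sample 2, and Slc7a7 (22.3 and 3.1) in sample 1. Slc3a1, the heavy chain that pairs with Slc7a9 in kidney, was above the control level with 17.2 and 11.3, under the floor in both.

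The Slc38 family carries glutamine and other neutral amino acids. Slc38a5 had 137 and 77.8, 1.76-fold higher in sample 1. Slc38a2, the system A carrier induced by amino acid shortage, had 24.8 and 34.6 by the brighter probe set, while its 3 others lay between 1.85 and 5.85. Slc38a10 had 14.6 and 23.0 by 1 probe set and 8.95 and 10.5 by the other, and Slc38a4 had 7.5 and 20 and was not above the control level in sample 1. Of the Slc1 genes, Slc1a5, the glutamine exchanger ASCT2, was above the control level with 17.9 and 10.1. Slc1a1, Slc1a2, Slc1a4 and Slc1a6 were not above it, with signals of at most 6.95.

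Of the Slc2 hexose carriers, 3 of 6 were above the control level. Slc2a1, the GLUT1 glucose carrier of many dividing cells, had 4.2 and 5.95, and was not above the control level in either sample. It rests on 1 probe set, which alone does not show that the gene is silent. Slc2a3 (GLUT3) had 21.9 and 28.1 by the brighter probe set and 14.2 and 7.95 by its other. The intracellular hexose carrier gene Slc2a8 had 25.8 and 32.7 by the brighter probe set and 1.75 and 3.45 by its other. The fructose carrier gene Slc2a5 had 25.1 and 24.1. Slc2a2 of liver and Slc2a4 of muscle and fat were not above the control level, with signals of at most 4.88.

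Slc50a1, a sugar carrier of the SWEET family, was higher in sample 2, with 47.4 and 155, or 3.27-fold (mean log2 signal 6.42 ± 1.21, SD, n = 2). It rests on 1 probe set. The inositol carrier gene Slc5a11 was above the control level with 14.6 and 16.9, and Slc5a1, Slc5a6 and the glucose-6-phosphate carrier gene Slc37a4 were not. Among the monocarboxylate carriers, which move lactate, Slc16a8 had 19.1 and 39.7, at least 1.99-fold higher in sample 2, and Slc16a1 (5.4 and 4.5) and Slc16a7 (7.7 and 1.1) were not above the control level.

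Nucleosides and vitamins enter through Slc29, Slc19, Slc23 and Slc44. Slc29a1, the equilibrative nucleoside carrier ENT1, had 73.7 and 35.1, 2.10-fold higher in sample 1 (mean log2 signal 5.67 ± 0.76, SD, n = 2). The dimmer probe set gave 20.6 and 15, in the same direction. Slc19a1, the reduced folate carrier, had 62.8 and 53.6 by the brighter probe set and 89.3 and 13.8 by its other. The difference of this gene was 1.17-fold by the former, and the latter fell below the floor in sample 2. Slc23a3 had 74.95 and 74.55, with 28.3 and 37.2 by its other probe set, and its direction changed with the scaling.

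Slc44a4, a member of the choline carrier family, had 68.2 and 52.5 by the brighter probe set and 0.95 and 5.4 by its other. Slc44a2 of the same family had 24.3 and 17.8. All 5 genes of this class above the control level were higher in sample 1 by the probe set used, by 1.005-fold for Slc23a3 to 2.10-fold for Slc29a1. The genes not above the control level were Slc23a1, Slc23a2, Slc29a2, Slc44a1 and Slc46a1, of which the ascorbate carrier gene Slc23a2 had 4.2 and 34.6.

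Metal carriers included a copper importer with conflicting probe sets. Slc31a1 encodes CTR1, the copper importer at the cell surface. It had 286 in sample 1 and 70.2 in sample 2, 4.08-fold higher in sample 1 (mean log2 signal 7.15 ± 1.43, SD, n = 2). The dimmer probe set gave 48.5 and 66.0, higher in sample 2, so the direction for this gene depended on the probe set.

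The zinc importer gene Slc39a1 (ZIP1) likewise had 67.3 and 139 by the brighter probe set, 2.07-fold higher in sample 2 (mean log2 signal 6.60 ± 0.74, SD, n = 2). The dimmer probe set gave 26.4 and 7.75, higher in sample 1 and not above the control level in sample 2. With the deposited scaling Slc39a1 was under 2-fold apart. Slc39a4 (ZIP4) had 120 and 155 by the brighter probe set and 13.9 and 23.5 by its other, higher in sample 2 by both.

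Among the other zinc carriers, Slc30a5, which fills the secretory pathway with zinc, had 27.8 and 22.5, and 24.7 and 18.8 by its other probe set. Slc30a3, known from synaptic vesicles, had 123 and 139 by 1 probe set and 6.15 and 3.85 by the other. Slc39a6 had 34.7 and 18.8 and Slc39a7, a zinc channel of the endoplasmic reticulum, 26.2 and 17.1. Slc30a1, Slc30a4, Slc30a9, Slc39a3, Slc39a8, Slc39a9 and the magnesium carrier gene Slc41a1 were not above the control level in both samples, and Slc41a1 had 2.8 and 26.3.

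The iron carrier gene Slc11a2, by its brighter probe set, and the haem carrier gene Slc48a1 were close between the samples. Slc11a2 (DMT1), the iron importer of endosomes, had 69.5 and 53.7 by the brighter probe set and 11.2 and 17.2 by its other. Slc48a1, a haem carrier, had 42.5 and 41.7. Its direction changed with the scaling. Tfrc, the transferrin receptor gene of the same uptake route, had 303 and 172.

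Slc11a1 (NRAMP1), the metal carrier of macrophage phagosomes, had 18 and 2.5 and was not above the control level in sample 2. Of 9 measured macrophage and monocyte markers 6 were above the control level, 5 with the larger signal in sample 1 and 1 with it in sample 2, and none was at 0. The summed signal of the 9 was 648 in sample 1 and 337 in sample 2, in which bright probe sets weigh most. The part of such cells in the Slc11a1 signals was not tested.

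The nucleotide sugar carriers of Slc35 supply glycosylation and sulfation. Slc35b1, the ATP and ADP exchanger of the endoplasmic reticulum, had 111 and 217, 1.95-fold higher in sample 2 (mean log2 signal 7.28 ± 0.68, SD, n = 2). Slc35b2, which brings the sulfate donor PAPS into the Golgi, had 85.2 and 89.3, a direction that changed with the scaling. Slc35c2 had 36.8 and 30.7, and Slc35e4 25.6 and 49.6, 1.94-fold higher in sample 2. Slc35d1 (15 and 21.5) and Slc35e1 (24.3 and 18.5, and 6.35 and 22.2 by its other probe set) were above the control level but under 20 in a sample. The CMP-sialic acid carrier gene Slc35a1 (32.3 and 5.85), the UDP-galactose carrier gene Slc35a2 (4.6 and 7.2), Slc35a4 and Slc35g3 were not above it in both samples.

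Among the inorganic ion carriers above the control level, only Slc4a1 was 2-fold or more apart. It encodes band 3, the chloride and bicarbonate exchanger of the red cell membrane, and had 19.5 in sample 1 and 68.4 in sample 2, at least 3.42-fold higher in sample 2. Erythroid markers moved in both directions. Of 10 measured, 7 were above the control level, 3 with the larger signal in sample 2 and 4 with it in sample 1, and none was at 0. The summed signal of the 10 was 1051 and 1208, in which bright probe sets weigh most, so the sum does not measure erythroid content. Hba-a1 had 30.1 and 670 and Hbb-b2 12.1 and 75, while Car1 had 488 and 75.9 and Klf1 215 and 80.5. The part of erythroid cells or RNA in the Slc4a1 signals was not tested.

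The broadly expressed anion exchanger gene Slc4a2 was close between the samples, with 47.9 and 44.0, and Slc4a3 had 25.9 and 27.9, a direction that changed with the scaling. Slc9a8, a sodium and proton exchanger of the Golgi, had 75.5 and 63.5. Slc12a2, the sodium, potassium and chloride cotransporter NKCC1, had 34.4 and 22.5. Slc20a1, a phosphate carrier known as a retrovirus receptor, had 19.2 and 34.1, at least 1.71-fold higher in sample 2.

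The 13 inorganic ion carriers that did not pass the control level in both samples included Slc12a7, a potassium and chloride cotransporter, with 4.8 and 51.7. The difference was at least 2.58-fold against the floor. It was the only carrier gene 2-fold or more apart that failed the control level in a sample. The others of these 13 were Slc4a4, Slc4a5, Slc4a8, Slc8a1, Slc9b2, Slc12a1, Slc12a3, Slc12a4, Slc26a1, Slc26a2, Slc34a1 and Slc34a2.

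Among Slc6 carriers, Slc6a6, the taurine carrier, had 99.0 and 177 by the brighter probe set, 1.79-fold higher in sample 2, and 11.5 and 19.6 by its other. Slc6a9, the glycine carrier GLYT1, which erythroid cells also use, had 88.5 and 79.9. Slc6a13, a GABA and taurine carrier, had 75.5 and 60.7, and Slc6a20b 21.0 and 27.1. Slc6a15 was above the control level with 12.4 and 15.7. The creatine carrier gene Slc6a8 had at most 5.5 by either of its probe sets. It was not above the control level, and neither were Slc6a3, Slc6a12, Slc6a18, Slc17a1, Slc18a3 and Slc32a1. Among these, the vesicular transmitter carrier genes Slc18a3 and Slc32a1 had at most 8.6.

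Among carriers of organic ions and acids, Slc10a3, an orphan of the bile acid carrier family, had 76.9 and 88.5 and was the only gene of the 26 with 20 or more in both samples. The fatty acid carrier gene Slc27a4 had 16 and 16.8, and Slc22a18 19.0 and 21.7. Slc22a12 (12.6 and 34.8) and Slc16a8 complete the 5 above the control level. None of the 3 Slco genes, Slco3a1, Slco5a1 and Slco6c1, was above it in both samples, and the largest signal among them was 13.6. The remaining genes of the class not above it were Slc10a1, Slc10a2, Slc10a6, Slc15a2, Slc22a2, Slc22a4, Slc22a5, Slc22a6, Slc22a17, Slc22a21, Slc22a23, Slc22a30, Slc27a1, Slc27a2, Slc27a3 and Slc27a5, besides Slc16a1 and Slc16a7. Slc33a1, the acetyl-CoA carrier of the endoplasmic reticulum, had 4.2 and 2.25, and Slc66a2 81.6 and 66.2.

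The partner genes did not behave alike. Slc9a3r1 encodes NHERF1, a PDZ scaffold that links membrane proteins to the actin-binding protein ezrin. It had 41.5 and 176, 4.23-fold higher in sample 2 (mean log2 signal 6.42 ± 1.47, SD, n = 2), by 1 probe set. Slc9a3r2 had 14.6 and 12.6, and Slc4a1ap 4.4 and 16.

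**Figure D2:**
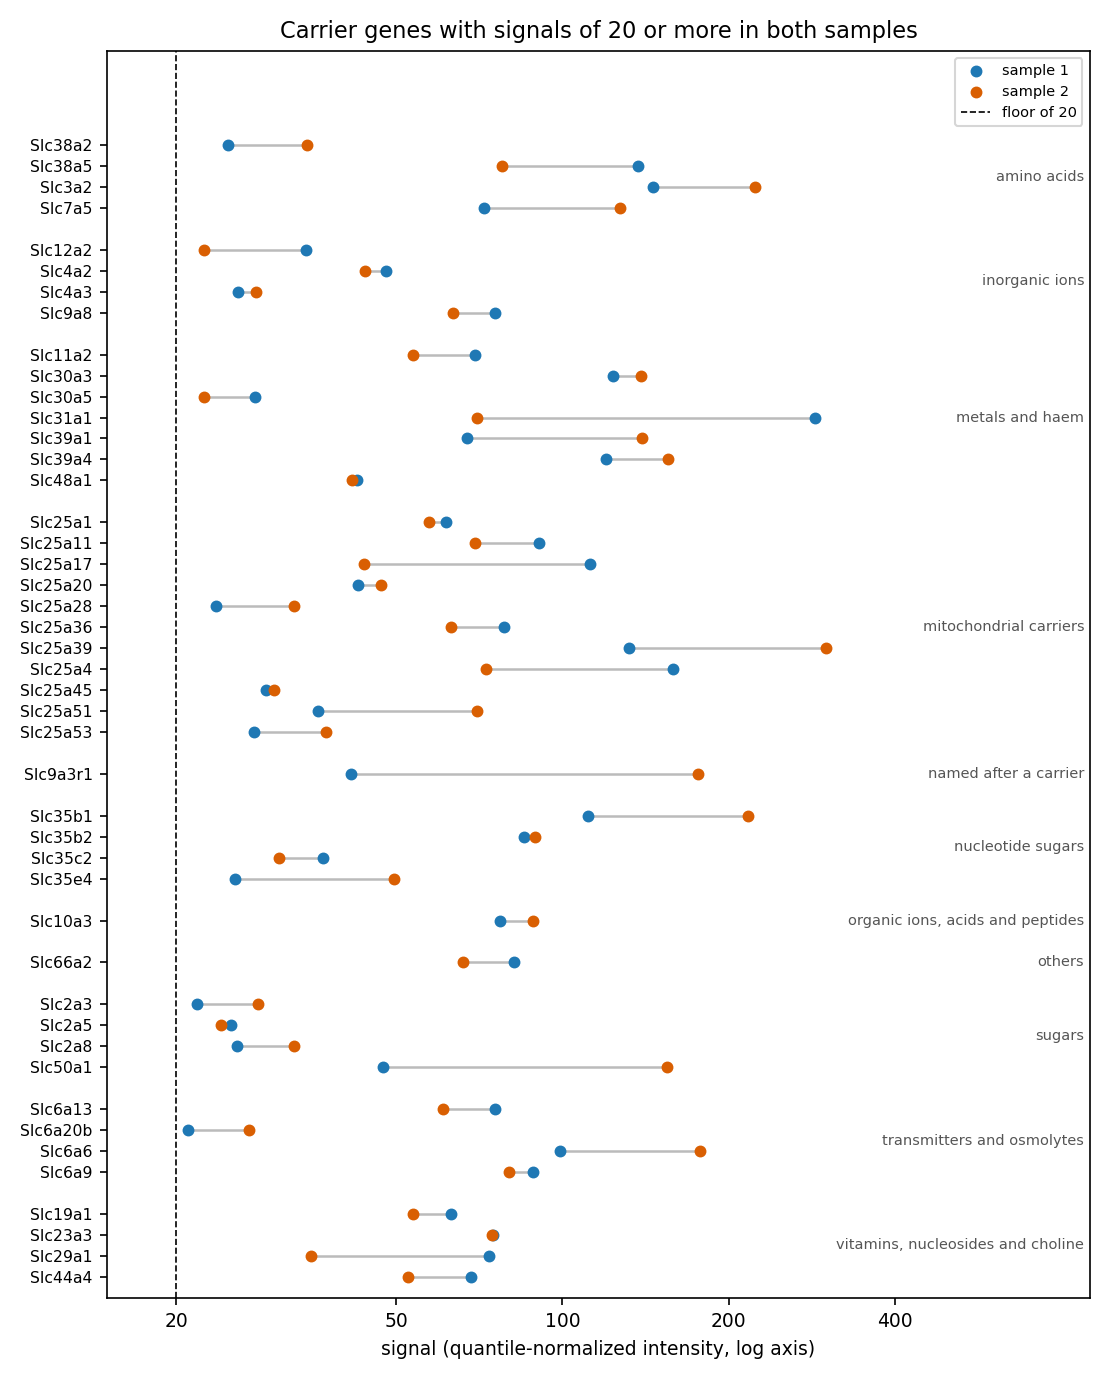
Quantile-normalized signal (log axis) of the 45 genes with 20 or more in both samples, with sample 1 in blue and sample 2 in orange, grouped by substrate class. Long bars mark genes such as Slc31a1 (286 and 70.2), Slc9a3r1 (41.5 and 176) and Slc50a1 (47.4 and 155), and Slc48a1, Slc23a3 and Slc35b2 nearly coincide.

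Over all carriers the samples differed without a common direction. Of the 69 genes above the control level, 32 were higher in sample 2, 30 were lower in sample 2 and 7 had both signals under 20, with a median log2 difference of 0. The median over all 4707 named genes above the control level was also 0. Quantile normalization and the floor hold such medians near 0, so these values say little about a common direction. With no floor the medians were 0.068 for the carriers and -0.070 for the named genes. Of the 69, 9 (13.0%) were 2-fold or more apart, against 20.7% of the named genes. Higher in sample 2 were 5, Slc4a1, Slc9a3r1, Slc25a39, Slc39a1 and Slc50a1, against 9.62% of the named genes, and higher in sample 1 were 4, Slc25a4, Slc25a17, Slc29a1 and Slc31a1, against 11%. Just inside the 2-fold limit was Slc39a1 at 2.07-fold, and just outside was Slc35b1 at 1.95-fold. Slc16a8, at least 1.99-fold apart with sample 1 under the floor, could lie on either side. The floor shortens folds, and 24 of the 69 genes were under 20 in a sample. With 20 or more in both samples, 8 of 45 carriers were 2-fold or more apart. Of 3355 such named genes, 363 were 2-fold or more higher in sample 2 and 401 in sample 1.

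Of the 45 genes with 20 or more in both samples, 25 differed by less than 1.3-fold, 12 by 1.3-fold to 2-fold and 8 by more, with a median of 1.29-fold. Across the 69 carrier genes the SD between the samples was 0.50 on the log2 scale, and across the named genes above the control level it was 0.59. Across the 153 carrier genes the log2 signals of the 2 samples had a Pearson correlation of 0.84 and the signals a Spearman correlation of 0.73. These are correlations across genes of 2 arrays, which share the probes, and genes are not independent replicates.

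**Figure D3:**
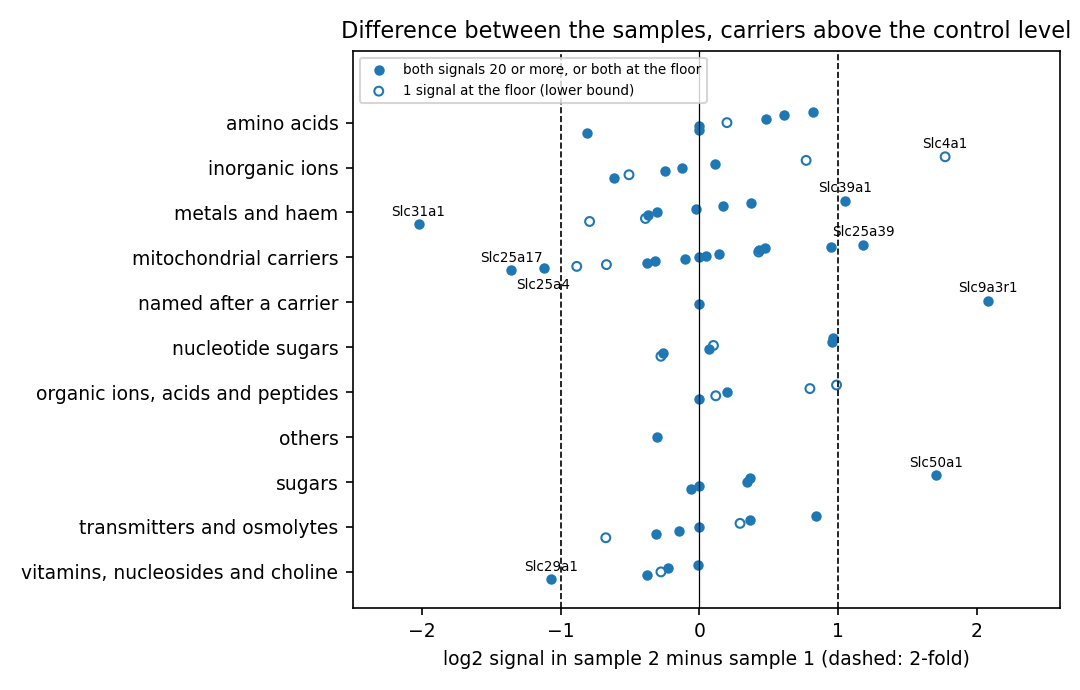
Log2 signal in sample 2 minus sample 1 for the 69 carrier genes above the control level, by substrate class, with dashed lines at 2-fold and open circles for lower bounds against the floor. The 9 named genes lie on or beyond the 2-fold lines, 5 to the right and 4 to the left.

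The agreement between probe sets limits how far a difference of a gene can be read. Of the 29 carrier genes with several probe sets, 9 had all of them above the control level, 12 had some and 8 had none. Hence a gene that failed the control level by its only probe set is not shown to be absent. In 5 of the 9 the probe sets differed between the samples in the same direction (Slc6a2, Slc19a1, Slc29a1, Slc30a5 and Slc39a4), and in 4 in opposite directions (Slc23a3, Slc25a1, Slc25a51 and Slc31a1). The same direction did not mean the same size, since Slc19a1 had 62.8 and 53.6 by 1 probe set and 89.3 and 13.8 by the other. For Slc25a1 the opposite directions depended on the scaling, since the deposited values were lower in sample 2 by both probe sets (63.4 and 55.5, and 54.8 and 52.1). For Slc23a3 they did as well, since with median-centring both of its probe sets were higher in sample 2. Of the 9 genes 2-fold or more apart, 6 had 1 probe set. The other 3 had 2 each, and the second probe set had the same direction for Slc29a1 and the opposite direction for Slc31a1 and Slc39a1.

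**Figure D4:**
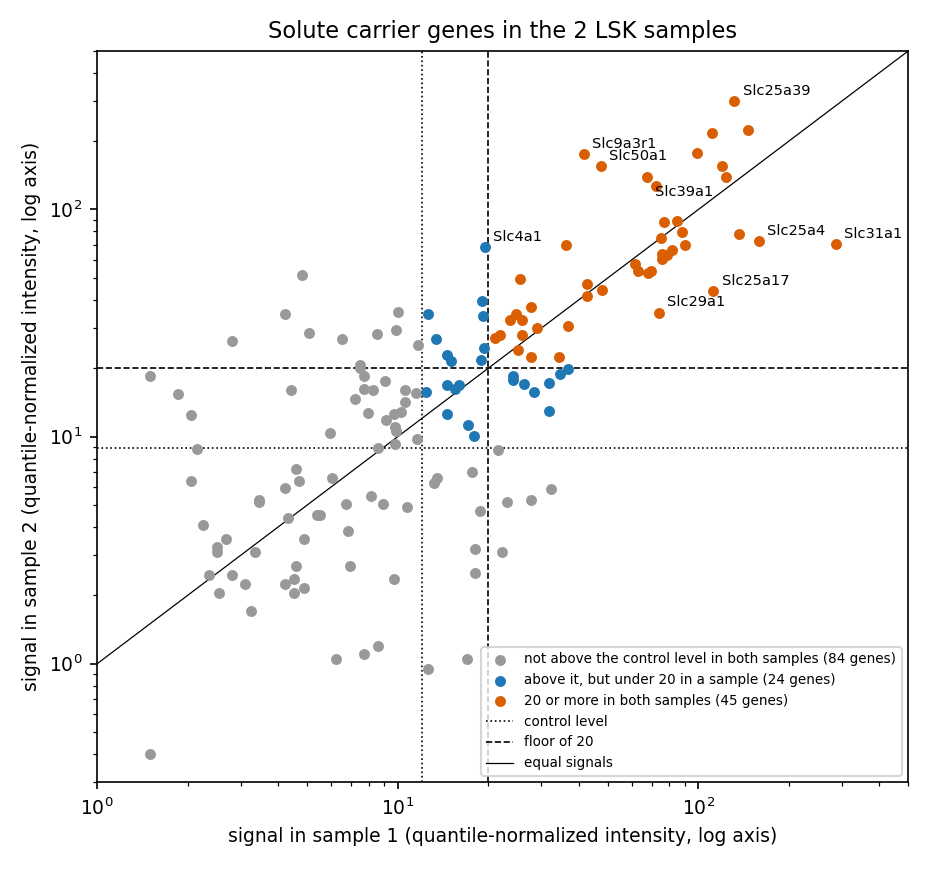
Signal of each of the 153 carrier genes in sample 1 (x) and sample 2 (y), both quantile-normalized on log axes, with dotted lines at the control level of each sample and dashed lines at the floor of 20. The 45 genes with 20 or more in both samples lie at the upper right along the line of equal signals, and the gray genes at the upper left are those above the control level in sample 2 alone.

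Carriers known mainly from other organs were counted apart. Whether their signals are background or RNA of the sorted cells was not tested, and the same holds for the other organ genes. Of 29 measured carriers on lists for brain, kidney, gut, liver and other organs, 7 (24.1%) passed the control level in both samples, against 62 of the 124 other members (50%) and 57% of all named genes. These shares depend on the lists, which were chosen with earlier results of these data known and are not complete. Slc30a3, known from synaptic vesicles, counts for example among the 124. Of 46 measured genes of other organs that are no carriers, such as Alb and Mbp, 12 (26.1%) were above it. The 7 were Slc6a9 and Slc6a13, given above, the noradrenaline carrier gene Slc6a2 (31.95 and 12.9), the serotonin carrier gene Slc6a4 (19.3 and 24.5, and 4.0 and 1.95 by its other probe set), the neuronal chloride exporter gene Slc12a5 (28.5 and 15.7), the kidney urate exchanger gene Slc22a12 and Slc3a1. Brain carriers supplied 5 of them, out of 11 measured, and carriers of the other organs 2, out of 18.

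Genes of other organs thus also passed the control level, and a stricter level was set from them. At this level, the 90th percentile of the probe sets of those organ genes (40.9 and 26.2), 31 of the 153 carrier genes remained, against 25.8% of all named genes, and of the 29 carriers of other organs Slc6a9 and Slc6a13 remained. Of the 20 Slc25 genes 7 remained (Slc25a1, Slc25a4, Slc25a11, Slc25a17, Slc25a20, Slc25a36 and Slc25a39), of the 17 metal and haem carriers 6, and of the 20 amino acid carriers Slc3a2, Slc7a5 and Slc38a5. Of the 10 carriers of vitamins, nucleosides and choline 4 remained (Slc19a1, Slc23a3, Slc29a1 and Slc44a4). At this level that class had the highest share, 40%, with metals at 35.3% and Slc25 at 35%.

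The starts of carrier genes known from other organs held fewer CpG dinucleotides, by their median, than those of Slc25 genes, a feature that the symbols do not use. The difference was not tested. CpG was counted in RefSeq promoter windows of GRCm38.p6, from 250 bases before to 50 after each start. They matched 18 of the 20 Slc25 genes and 26 of the 29 carriers of other organs. The median was 17.8 CpG per 300 bases for Slc25 (quartiles 13.3 and 28), 6.33 for the carriers of other organs (4.0 and 19.3) and 7.0 for all 32851 windows (3.0 and 20). The letters CCCGCC, a GC box, searched on both strands, were in 19 of 24 Slc25 windows (79.2%), in 14 of 38 windows of the carriers of other organs (36.8%) and in 35.3% of all windows. The letters TATAAA, searched likewise, were in 0, 4 and 13.6%, where the first 2 values are counts of the same windows. The set of all windows holds many genes that the array does not name, and its median is over windows, not over genes. A comparison with all named genes is void, because only 79.7% of them had a window. Over those the median was 19.0 CpG, CCCGCC was in 56.3% of the windows and TATAAA in 9.99%. The Slc25 median of 17.8 was not above that, but no conclusion is drawn from a void comparison. Whether Slc25 genes are rich in CpG for this array was not tested. The carriers in neither group had a median of 18 CpG, but only 76.9% of them had a window, so that comparison is void as well. All carriers together, 81.05% of them with a window, had a median of 16.5. A comparison of the 69 carriers above the control level with the 84 others is void too, because only 76.8% of the former had a window.

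Windows of 4 carriers, picked after their counts were seen, are printed in 5′ to 3′ order of the gene with each CpG in capitals. Slc25a39 holds 45 CpG, and Slc31a1, which is in neither of the groups compared, holds 21. Slc22a6, the organic anion carrier of kidney with signals of 2.25 and 4.1, holds 2, and Slc1a2, the glutamate carrier of astrocytes with 4.3 and 4.4, holds 1. CpG count and signal did not always go together, since Slc6a20b, above the floor in both samples, holds 1 CpG and Slc30a4, not above the control level, holds 46. Without Slc25, the carriers above the control level and those not above it each had a median of 15.5 CpG. Of these genes 74.1% and 83.5% had a window, so that comparison is void too. With Slc25 kept, the medians were 17 and 14, with a window for 76.8% and 84.5% of the genes.
Slc25a39 (chr11:102407468-102407767, minus strand): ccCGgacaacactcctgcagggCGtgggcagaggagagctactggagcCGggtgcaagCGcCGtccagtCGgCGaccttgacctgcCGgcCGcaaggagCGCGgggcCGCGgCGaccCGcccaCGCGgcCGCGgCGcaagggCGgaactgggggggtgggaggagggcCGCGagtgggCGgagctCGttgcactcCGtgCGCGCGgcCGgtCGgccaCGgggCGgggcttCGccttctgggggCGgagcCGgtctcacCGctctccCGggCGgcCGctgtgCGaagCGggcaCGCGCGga
Slc31a1 (chr4:62360451-62360750, plus strand): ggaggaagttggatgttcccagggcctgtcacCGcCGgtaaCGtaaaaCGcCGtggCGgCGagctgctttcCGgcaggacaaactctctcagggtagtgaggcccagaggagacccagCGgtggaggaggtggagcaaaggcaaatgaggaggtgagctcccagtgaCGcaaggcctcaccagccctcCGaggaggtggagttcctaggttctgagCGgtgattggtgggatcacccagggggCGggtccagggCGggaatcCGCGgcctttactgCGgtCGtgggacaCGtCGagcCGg
Slc22a6 (chr19:8617746-8618045, plus strand): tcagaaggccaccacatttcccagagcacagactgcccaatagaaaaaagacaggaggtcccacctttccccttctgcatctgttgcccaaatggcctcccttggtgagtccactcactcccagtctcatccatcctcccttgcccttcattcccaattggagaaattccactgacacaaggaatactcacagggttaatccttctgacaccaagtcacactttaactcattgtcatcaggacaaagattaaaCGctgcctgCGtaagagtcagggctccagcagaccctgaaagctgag
Slc1a2 (chr2:102706188-102706487, plus strand): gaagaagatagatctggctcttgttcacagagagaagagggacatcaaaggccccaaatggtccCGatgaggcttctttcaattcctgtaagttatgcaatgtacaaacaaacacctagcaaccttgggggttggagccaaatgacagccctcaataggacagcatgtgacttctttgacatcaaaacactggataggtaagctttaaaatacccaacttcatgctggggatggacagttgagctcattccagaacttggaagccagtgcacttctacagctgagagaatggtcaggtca

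**Figure D5:**
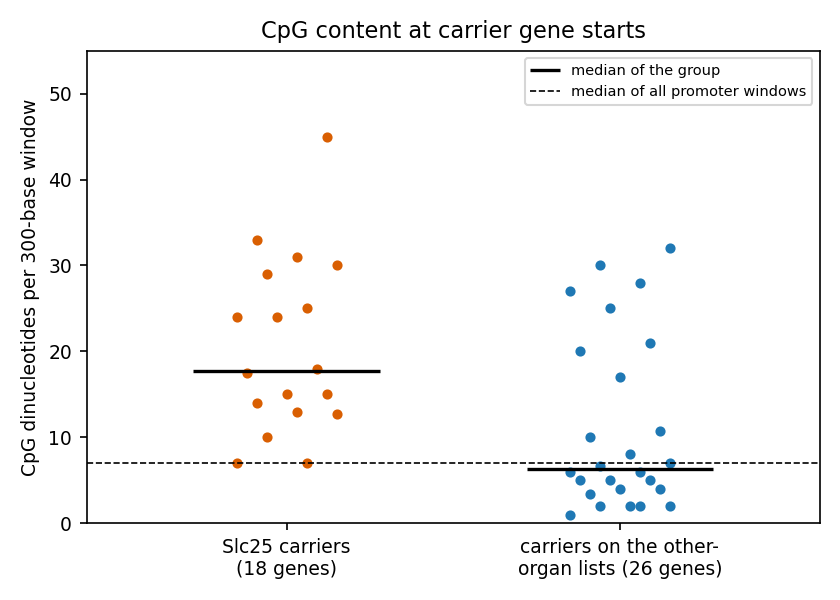
CpG dinucleotides per 300-base promoter window, averaged over the starts of a gene, for 18 Slc25 genes (orange) and 26 carriers on the lists for other organs (blue), with thick lines at the medians of 17.8 and 6.33 and a dashed line at the median of all windows, 7.0. Most Slc25 genes lie above the dashed line, and the carriers of other organs lie on both sides of it. The named genes of the array that had a window, not drawn, had a median of 19.0.

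Genes that work with carriers but have other names are given beside the carriers, with no test of the difference. Of 27 measured genes on this companion list, 22 (81.5%) were above the control level, 7 of them higher in sample 2 and 13 in sample 1, while 2 had both signals under 20. Bsg, the chaperone that brings Slc16 lactate carriers to the surface, had 98.4 and 65.8, and its relative Emb 155 and 44.2. The sodium pump subunit gene Atp1b3, whose pump maintains the gradient that drives many carriers, had 446 and 233. The outer membrane channel genes Vdac2 (115 and 62.3) and Vdac3 (76.4 and 31.2) were higher in sample 1, and Vdac1 (6.35 and 13.0) was not above the control level. The shuttle enzyme genes Mdh2 (897 and 210) and Got2 (294 and 214), partners of Slc25a11 in the malate-aspartate shuttle, were also higher in sample 1.

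On the fatty acid route that Slc25a20 serves, Cpt1a had 44.6 and 141 and Cpt2 94.2 and 51.9, in opposite directions. Xpr1, a phosphate exporter, had 69.8 and 186, and Hk1, which phosphorylates imported glucose, had 73.5 and 116. The other hexokinase gene, Hk2, went the other way, with 45.4 and 9.15, at least 2.27-fold higher in sample 1. Of the companions above the control level 7 (31.8%) were 2-fold or more apart, beside 20.7% of the named genes, with 3 higher in sample 2 and 4 higher in sample 1.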

How the data were processed

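The authors deposited 1 linear intensity for each of 12488 probe sets in both samples. The software behind these numbers was not given in the sources used here, and no detection calls were used. Per the labels, the RNA had 2 rounds of amplification. The deposited intensity columns had equal means (53.9), medians of 15.9 and 14.5, and 2% trimmed means 6.15% apart, above a tolerance of 5%, so they were quantile-normalized. The 66 control probe sets entered no count. The floor of 20 held 57.7% of the other values in each sample.

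Genes were named from the platform's annotation. Each gene took the values of its brightest probe set, by mean log2 signal. All 187 carrier probe sets had a gene in the GRCm38.p6 table, with 0 symbols changed. No coordinates of probe sets are printed, because their table names no build. The carriers, lists and thresholds were chosen with earlier results of these data known. Named genes are the carriers with 20 or more in both samples, those 2-fold apart, those whose probe sets disagree and the organ carriers above the control level. Others are named with values where they were singled out after seeing them. The scripts (Python 3.11.15, numpy 2.4.6, pandas 2.3.3) were tested on simulated data. The number of arrays limits the precision. Other scalings, levels, floors and probe set rules were tried, as well as each sample alone.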

Additional observations from a re-analysis of the deposited data

How the results depend on the processing

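The count of 69 carrier genes above the control level was 126 with the median bacterial probe set as the level, 45 with a signal of 20 in both samples and 31 with the 90th percentile of organ genes, and all named genes moved with it, from 57% to 85.4%, 40.7% and 25.8%. It was 65 with the highest bacterial probe set and 57 where every probe set was required to pass. With either sample left out it was 82 to 102, and the count of 45 genes at or above the floor was 58 to 66. The count of 9 genes 2-fold or more apart was 4 with an offset of 32 added before log2, where 8.24% of the named genes were called, 8 with the deposited scaling (without Slc39a1) and 11 with median-centring (with Slc16a8 and Slc35b1), 12 with no floor (8 higher in sample 2 and 4 in sample 1), 10 with no filter and 7 with the mean over probe sets. The median log2 difference over the carriers was 0 to 0.068 under the 6 alternatives planned for it. With other levels it was 0.048 at a signal of 20 and -0.10 at the 90th percentile of organ genes (all named genes -0.16), where 13 of 31 carriers were higher in sample 2. The direction of 5 genes changed with the scaling (Slc4a3, Slc23a3, Slc25a45, Slc35b2 and Slc48a1), and none of them was over 1.08-fold apart. Low signals over background limit the rest, since 24 of the 69 genes were under 20 in at least 1 sample.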
